A study of Homo sapiens with 12 samples.

Results

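This account covers 10 genes of 60617 in the count tables: the aldo-keto reductases AKR1B1, AKR1B10, AKR1C1, AKR1C2 and AKR1C3, and, of the oxidative stress pathway, NFE2L2 (the gene of the transcription factor NRF2) with 4 of its target genes, NQO1, GCLM, TXNRD1 and HMOX1. They were chosen by name, with earlier results of these data known. AKR1B10 and AKR1C3 were picked because of how they differed between the groups of these same libraries, so their values are given as a description with no test. The other 8 genes are read from tests fitted over all genes. RNA was sequenced in 12 libraries of 769-P, an established human cell line of clear cell renal carcinoma. They comprise 3 libraries labelled siDRAIC, named for an siRNA (a short RNA that lowers a matching transcript) against the long non-coding RNA DRAIC, and 3 libraries labelled sihnRNPA2B1, named for an siRNA to hnRNPA2B1, a protein that binds RNA. Each was set against 3 libraries of its own experiment, labelled siDRAIC-NC and sihnRNPA2B1-NC and taken here as controls. All 4 groups are 1 cell line in the same medium, and no source used here gives the sequence, dose or time of the siRNAs or the meaning of NC.

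Library totals ran from 30798303 to 42760528 counts, and levels are given as CPM, counts scaled to the library total. HNRNPA2B1 stood at 291 ± 16.7 CPM in sihnRNPA2B1 libraries and 419.6 ± 21.0 CPM in sihnRNPA2B1-NC libraries (SD, n = 3 each). DRAIC had 9 counts over the 3 libraries labelled siDRAIC and 5 over the siDRAIC-NC libraries (ratio 1.76, exact 95% bounds 0.531 and 6.70). No fall of DRAIC was seen in these few counts. The lower bound, which covers counting error only, was 0.531 times the control. These libraries are therefore named by their label. Of 8 renal clear cell markers, 7 reached 1 CPM in some library, among them PAX8 and VIM, and CA9 did not. They summed to 3290 to 3690 CPM in siDRAIC, 3200 to 3750 CPM in siDRAIC-NC, 1940 to 2030 CPM in sihnRNPA2B1 and 1960 to 2020 CPM in sihnRNPA2B1-NC libraries. Of 7 tested, 1 (CDH6) was higher and 0 lower in siDRAIC at an edgeR adjusted p below 0.05, against 0.582% and 0.131% of all genes. In sihnRNPA2B1, 2 were higher and 2 lower, against 15.1% and 15.4%. All 5 blood and immune and all 4 endothelial markers were below 1 CPM in all 12 libraries. Of the hepatocyte markers, ALB, APOA2 and TTR were below 1 CPM, while the list summed to 170 to 199 CPM in siDRAIC, 206 to 356 CPM in siDRAIC-NC, 29.1 to 31.8 CPM in sihnRNPA2B1 and 52.5 to 56.6 CPM in sihnRNPA2B1-NC libraries, through SERPINA1. Of 5 fibroblast markers, COL1A2, DCN and LUM were below 1 CPM, and the list summed to 10.5 to 18.2 CPM in siDRAIC and 2.55 to 6.59 CPM in siDRAIC-NC libraries, and to 3.56 to 4.12 CPM in sihnRNPA2B1 and 2.47 to 3.61 CPM in sihnRNPA2B1-NC libraries. Their part in the results was not tested. In bulk RNA, fewer cells of a kind and less RNA per cell cannot be told apart.

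As background, NRF2 is a transcription factor that the adaptor protein KEAP1 hands to a ubiquitin ligase for degradation. Oxidants and electrophiles modify KEAP1, NRF2 builds up, pairs with small MAF proteins and switches on genes with an antioxidant response element, so that its activity is set largely at the level of the protein. Aldo-keto reductases use NADPH to reduce aldehydes and ketones, among them sugars, retinaldehyde, steroids, prostaglandins and products of lipid oxidation, and several human members are known NRF2 targets.

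AKR1C1, AKR1C2 and AKR1C3 lie side by side on chromosome 10 in GRCh38: AKR1C1 (ENSG00000187134) at chr10:4963253-4983283 on the plus strand, AKR1C2 (ENSG00000151632) at chr10:4987400-5018031 on the minus strand and AKR1C3 (ENSG00000196139) at chr10:5035354-5107686 on the plus strand. The coding sequences of AKR1C1 and AKR1C2 in GENCODE 29 (transcripts AKR1C1-202 and AKR1C2-201) were 98.0% identical, with 19 of 972 bases different, and AKR1C3 (AKR1C3-201) was 91.5% identical to AKR1C1. The stretch of coding bases 103 to 162 is counted from the first base of the start codon. It is shown because it holds 10 of the 19 coding differences between AKR1C1 and AKR1C2. The transcripts also differ outside the coding sequence. Capitals mark the positions at which those genes differ, and AKR1C3 is set below them at the same positions.
AKR1C1: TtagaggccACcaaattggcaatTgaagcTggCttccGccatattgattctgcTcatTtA
AKR1C2: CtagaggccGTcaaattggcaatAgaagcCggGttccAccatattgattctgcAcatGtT
AKR1C3: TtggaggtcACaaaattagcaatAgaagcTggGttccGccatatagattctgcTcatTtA

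Of all 100-base windows along the AKR1C2 transcript, 32.9% also occurred in a transcript of another gene, and 31.1% of all windows occurred in AKR1C1. The share was 17.4% for AKR1C1, 13.8% for NQO1 (all with the overlapping AC092115.2) and 4.98% for AKR1C3. It was 3.34% for NFE2L2, 2.01% for AKR1B10 and 0 for the other 4 genes. Of 50-base windows, the share was 52.2% for AKR1C2, 28.7% for AKR1C1, 18.1% for NQO1, 17.7% for AKR1B10 and 12.1% for AKR1C3. It was 5.06% for NFE2L2, 4.78% for AKR1B1, 1.48% for GCLM, 0.62% for HMOX1 and 0 for TXNRD1. No source used here gives the read length or how reads with more than 1 match were counted, and the division of reads between AKR1C1 and AKR1C2 is uncertain. AKR1B1 (ENSG00000085662, chr7:134442350-134459284, minus strand) and AKR1B10 (ENSG00000198074, chr7:134527592-134541408, plus strand) lie 68307 bases apart, and their coding sequences were 76.1% identical. NFE2L2 (ENSG00000116044) lies at chr2:177227595-177392697 and NQO1 (ENSG00000181019) at chr16:69706996-69726951, both on the minus strand and both with exons that overlap genes on the other strand, whose reads cannot be told apart here. GCLM (ENSG00000023909) lies at chr1:93885205-93909456 on the minus strand, and TXNRD1 (ENSG00000198431) at chr12:104215779-104350305 and HMOX1 (ENSG00000100292) at chr22:35380361-35394214 on the plus strand.

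The core of the antioxidant response element, TGACNNNGC, was searched on both strands of promoter windows from 250 bases before to 50 bases after each start (RefSeq, GRCh38.p14), which were at hand for 8 of the 10 genes in 12 windows, and not for AKR1B10 and HMOX1. It occurred in 13.3% of all 35116 windows. Of the 10 genes it was found for GCLM and TXNRD1, and the related letters TGAGTCA, in 4.95% of all windows, were found for none. The stretches around the matches before the start are shown because these are the NRF2 target promoters of the group in which the letters stand. Each is given 5′ to 3′ on the strand of its gene, with the match in capitals, and lies at chr1:93909436-93909484 (minus strand), chr12:104215660-104215708 (plus strand) and chr12:104286910-104286958 (plus strand, by a second start of TXNRD1).
GCLM: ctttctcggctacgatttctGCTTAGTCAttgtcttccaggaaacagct
TXNRD1, first start: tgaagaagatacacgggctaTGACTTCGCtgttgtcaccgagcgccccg
TXNRD1, second start: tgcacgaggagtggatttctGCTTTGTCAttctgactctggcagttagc

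In the GCLM stretch and the second TXNRD1 stretch the element reads on the opposite strand. Of their 49 bases 25 were identical, and of the 25 around the match 18, with a longest identical run of 11. The fixed letters of the match are among these and agree by the search itself. A match is a description of letters and no measurement of NRF2 binding.

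Per kilobase of exon, AKR1B1 had the highest mean level of the 10 genes in the siDRAIC, siDRAIC-NC and sihnRNPA2B1-NC libraries, at 183, 307 and 274 CPM per kb, and TXNRD1 in sihnRNPA2B1 libraries, at 258 CPM per kb. NQO1 came after AKR1B1 and TXNRD1, at 85.9 to 96.0 CPM per kb in the 4 group means. AKR1C3 had 44.4 CPM per kb in siDRAIC and 26.7 CPM per kb in siDRAIC-NC libraries, and 24.5 CPM per kb in sihnRNPA2B1 and 10.7 CPM per kb in sihnRNPA2B1-NC libraries. AKR1C1 and AKR1C2 were the scarcest with AKR1B10, and the AKR1C1 and AKR1C2 means lay between 0.247 and 1.86 CPM per kb. The plot of levels by library shows all 10 genes with their spread.

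**Figure D1:**
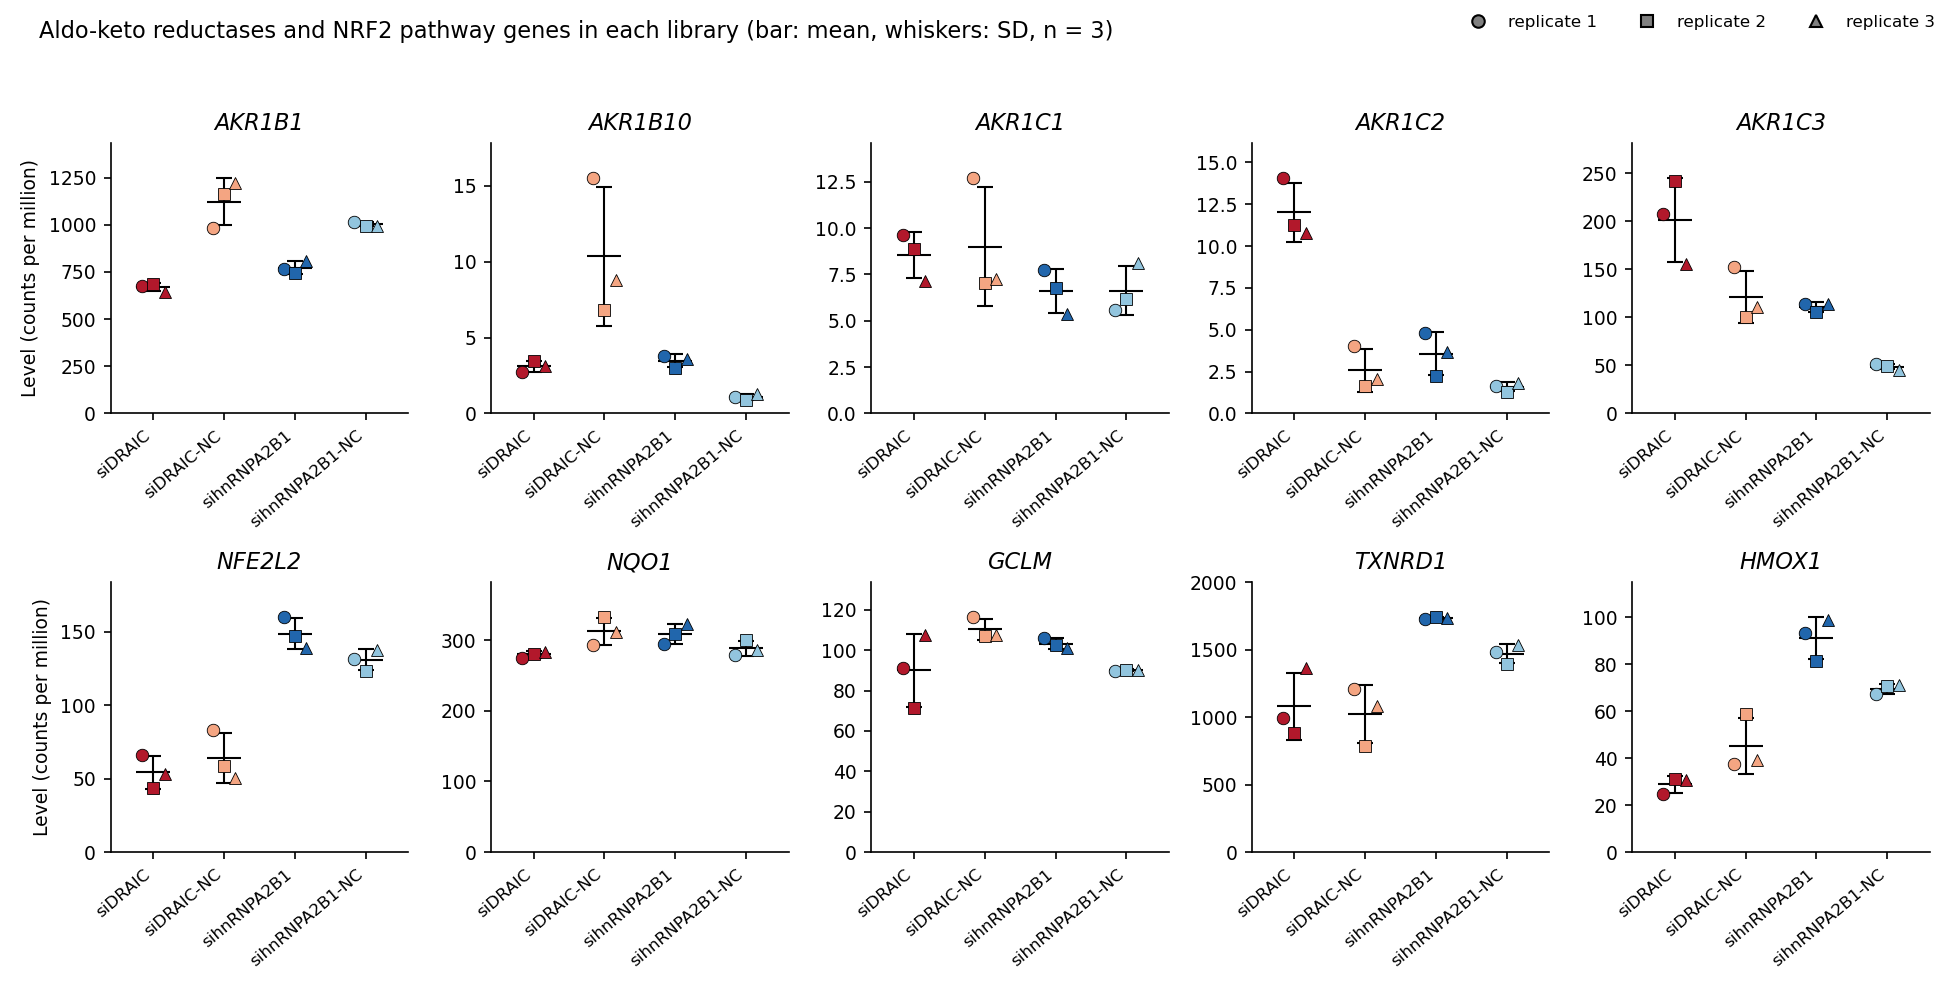
Level of each of the 10 genes in CPM (vertical axis, from 0) in the 12 libraries of 769-P cells, by group (horizontal axis); symbols are replicates 1 to 3, lines are means and whiskers SD (n = 3). AKR1C2 in siDRAIC libraries stood at 10.8 to 14.0 CPM, above all other libraries, and NFE2L2 and TXNRD1 were higher in both sihnRNPA2B1 groups than in both siDRAIC groups.

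The first comparison asked how the 10 genes differed between the libraries labelled siDRAIC and siDRAIC-NC. AKR1C2 rose, to a fitted 4.67 times its control level. It was the 1 gene of the 8 tested that passed in the main edgeR fit, which has no replicate block. AKR1C3 stood higher, AKR1B10 lower, and AKR1B1, NQO1 and HMOX1 were lower in each library without passing in that fit. NFE2L2 and the glutathione and thioredoxin genes GCLM and TXNRD1 overlapped between the groups. Of all 15986 genes tested, 0.582% were called higher and 0.131% lower (edgeR's quasi-likelihood test, Benjamini-Hochberg adjusted p below 0.05). With the replicate number as a block in that test, 3 of the 8 genes passed. These were AKR1C2, higher, and AKR1B1 and HMOX1, lower, where 5.20% of all genes were called higher and 3.58% lower. Since no label says that the replicates came from separate cultures, the p-values reflect the scatter of these libraries alone, which may be technical.

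AKR1C2, which reduces the androgen dihydrotestosterone to a weaker form, had 14.0, 11.2 and 10.8 CPM in siDRAIC libraries and 4.03, 1.63 and 2.04 CPM in siDRAIC-NC libraries. All 3 siDRAIC libraries were above all 3 controls, and siDRAIC-NC replicate 1 was the highest control. The log2 change was 2.22 (SE 0.31, edgeR adjusted p = 0.00801). It did not pass without siDRAIC replicate 3 (log2 change 2.31, edgeR adjusted p = 0.0531). The same held when siDRAIC-NC replicate 2 (1.98, edgeR adjusted p = 0.0610) or 3 (2.08, edgeR adjusted p = 0.0656) was left out.

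AKR1C1, which inactivates progesterone, had 9.61, 8.86 and 7.17 CPM in siDRAIC libraries and 12.7, 7.04 and 7.24 CPM in siDRAIC-NC libraries. The groups overlapped, with siDRAIC-NC replicate 1 highest, and the log2 change was -0.08 (SE 0.26, edgeR adjusted p = 0.953). Summing the reads of AKR1C1 and AKR1C2 removes the division between them. The log2 change of the sum was 0.82 (SE 0.25, edgeR adjusted p = 0.186) and did not pass. The sum includes AKR1C1, which had 994 counts over the siDRAIC and 1009 over the siDRAIC-NC libraries, against 1390 and 286 for AKR1C2. How far the AKR1C2 call depends on the division of reads was not tested.

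AKR1C2 took 59.4%, 55.9% and 60.0% of the reads of AKR1C1 and AKR1C2 together in siDRAIC libraries, against 24.1%, 18.8% and 21.9% in siDRAIC-NC libraries. The groups did not overlap, and the means, 58.4% ± 2.19 and 21.6% ± 2.68 (SD, n = 3 each), differed by 36.8 percentage points (two-sided exact permutation p = 0.1, the smallest that 3 against 3 libraries allow). In the other experiment the share was 38.3%, 24.7% and 40.7% in sihnRNPA2B1 libraries, against 22.9%, 17.4% and 18.4% in sihnRNPA2B1-NC libraries. These groups did not overlap either, with sihnRNPA2B1 replicate 2 close to the highest control, and the means of 34.5% ± 8.65 and 19.6% ± 2.93 differed by 15.0 points (two-sided exact permutation p = 0.1).

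**Figure D2:**
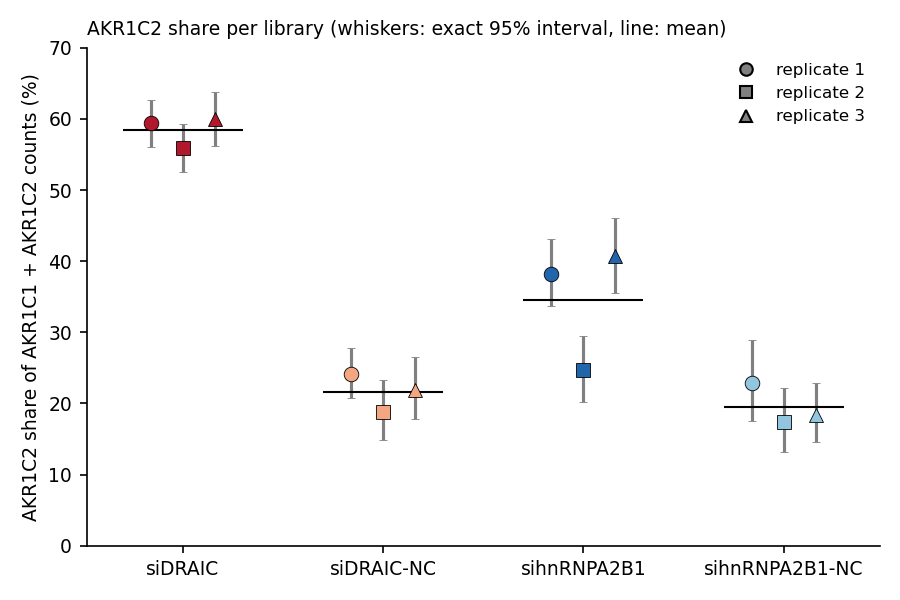
AKR1C2 reads as a percent of AKR1C1 plus AKR1C2 reads (vertical axis, from 0) in each library, by group (horizontal axis); whiskers are exact 95% intervals that cover counting error only, and lines are group means. The 3 siDRAIC libraries lay at 55.9% to 60.0%, above all 9 other libraries.

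AKR1C3, a prostaglandin F synthase that also makes testosterone from androstenedione, had 207, 241 and 155 CPM in siDRAIC libraries and 152, 101 and 110 CPM in siDRAIC-NC libraries. The groups did not overlap, but siDRAIC replicate 3 lay just above siDRAIC-NC replicate 1. The fitted log2 change was 0.72 (SE 0.20). AKR1B10, which reduces retinaldehyde and lipid aldehydes, had 2.71, 3.44 and 3.16 CPM in siDRAIC libraries and 15.5, 6.79 and 8.79 CPM in siDRAIC-NC libraries. All siDRAIC libraries were below all controls, and siDRAIC-NC replicate 1 was the highest. Its fitted log2 change was -1.74 (SE 0.30), and -1.39 without siDRAIC-NC replicate 1. AKR1C3 and AKR1B10 were picked for such differences, and nothing is read from them.

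AKR1B1, aldose reductase, which turns glucose into sorbitol in the polyol pathway, had 677, 688 and 646 CPM in siDRAIC libraries and 984, 1164 and 1221 CPM in siDRAIC-NC libraries. The groups did not overlap. The log2 change was -0.77 (SE 0.16, edgeR adjusted p = 0.0515). Same-numbered libraries of this experiment deviated together, and with the replicate number as a block the log2 change was -0.76 (edgeR adjusted p = 6.2e-06), where 5.20% of all genes were called higher and 3.58% lower. The adjusted p was also below the threshold in DESeq2 (0.00421), where 2.45% of all genes were called in either direction. It was so too without siDRAIC-NC replicate 1 (edgeR, 0.00347), where 1035 genes were called, against 114 with all libraries. In 8 of 13 alternatives AKR1B1 was not called, and over all 13 the adjusted p reached 0.262.

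HMOX1, the enzyme that opens haem to biliverdin, iron and carbon monoxide, had 24.9, 31.3 and 30.7 CPM in siDRAIC libraries and 37.5, 59.0 and 39.2 CPM in siDRAIC-NC libraries. The groups did not overlap, and replicate 2 was the highest in both. The log2 change was -0.67 (SE 0.23, edgeR adjusted p = 0.262), and -0.64 with the block (edgeR adjusted p = 0.00299). Without siDRAIC-NC replicate 1 the log2 change was -0.83 (edgeR adjusted p = 0.0340), in a fit that called 1035 of all genes, against 114 with all libraries. In 10 of 13 alternatives HMOX1 was not called, and over all 13 the adjusted p reached 0.783.

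NFE2L2 had 65.9, 43.9 and 52.9 CPM in siDRAIC libraries and 83.4, 58.8 and 50.3 CPM in siDRAIC-NC libraries, which overlapped (log2 change -0.26, SE 0.20, edgeR adjusted p = 0.702). NQO1, which reduces quinones without leaving radicals, had 275, 280 and 284 CPM in siDRAIC libraries and 294, 333 and 311 CPM in siDRAIC-NC libraries. These did not overlap, but the log2 change was small, -0.19 (SE 0.15, edgeR adjusted p = 0.717).

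GCLM, the modifier subunit of the enzyme that starts glutathione synthesis, had 91.3, 71.3 and 107 CPM in siDRAIC libraries and 116, 107 and 108 CPM in siDRAIC-NC libraries. siDRAIC replicate 3 overlapped the controls, and the log2 change was -0.32 (SE 0.17, edgeR adjusted p = 0.527). TXNRD1, the reductase that recharges thioredoxin with NADPH, had 997, 883 and 1361 CPM in siDRAIC libraries and 1209, 787 and 1081 CPM in siDRAIC-NC libraries, which overlapped (log2 change 0.05, SE 0.19, edgeR adjusted p = 0.956).

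Over all genes tested, the libraries of the groups did not overlap for 9.75% with siDRAIC higher and for 5.86% with siDRAIC lower. Of the 8 tested genes, 1 was apart and higher (AKR1C2) and 3 were apart and lower (AKR1B1, NQO1 and HMOX1).

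The second comparison set sihnRNPA2B1 libraries against sihnRNPA2B1-NC libraries. AKR1C2, HMOX1, TXNRD1, GCLM and NFE2L2 rose and AKR1B1 fell, 6 of the 8 tested genes. Most changes were small: the fitted levels were 2.18 times the control for AKR1C2, 1.28 times for HMOX1 and 0.754 times for AKR1B1. AKR1C1 and NQO1 did not pass. Among all 15710 genes tested, 15.1% were called higher and 15.4% lower, so calls were common in this experiment. Each of the 6 calls was lost when all 12 libraries were fitted together and shared 1 estimate of the spread, with edgeR adjusted p of 0.0806 to 0.697.

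AKR1C2 had 4.79, 2.21 and 3.69 CPM in sihnRNPA2B1 libraries and 1.66, 1.30 and 1.83 CPM in sihnRNPA2B1-NC libraries. The groups did not overlap, and the log2 change was 1.12 (SE 0.24, edgeR adjusted p = 0.000568). AKR1C1 had 7.72, 6.76 and 5.38 CPM in sihnRNPA2B1 libraries and 5.58, 6.17 and 8.12 CPM in sihnRNPA2B1-NC libraries, which overlapped (log2 change -0.04, SE 0.15, edgeR adjusted p = 0.871). With the reads of AKR1C1 and AKR1C2 summed, the log2 change was 0.27 (SE 0.14, edgeR adjusted p = 0.134).

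AKR1C3 had 114, 105 and 114 CPM in sihnRNPA2B1 libraries and 51.0, 49.7 and 45.4 CPM in sihnRNPA2B1-NC libraries, with a fitted log2 change of 1.16 (SE 0.06). AKR1B10 had 3.82, 3.00 and 3.59 CPM in sihnRNPA2B1 libraries and 1.07, 0.915 and 1.31 CPM in sihnRNPA2B1-NC libraries, with a fitted log2 change of 1.62 (SE 0.22). Both genes were higher in each sihnRNPA2B1 library than in any control. AKR1B1 had 765, 744 and 810 CPM in sihnRNPA2B1 libraries and 1015, 996 and 995 CPM in sihnRNPA2B1-NC libraries. All sihnRNPA2B1 libraries were lower, and the log2 change was -0.41 (SE 0.05, edgeR adjusted p = 1.79e-07).

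HMOX1 had 93.4, 81.6 and 98.9 CPM in sihnRNPA2B1 libraries and 67.2, 70.7 and 71.1 CPM in sihnRNPA2B1-NC libraries. The groups did not overlap, and the log2 change was 0.36 (SE 0.07, edgeR adjusted p = 0.00013). TXNRD1 had 1725, 1742 and 1734 CPM in sihnRNPA2B1 libraries and 1482, 1396 and 1538 CPM in sihnRNPA2B1-NC libraries. It was higher in each library, with a log2 change of 0.20 (SE 0.05, edgeR adjusted p = 0.00109).

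NFE2L2 had 160, 147 and 139 CPM in sihnRNPA2B1 libraries and 131, 123 and 138 CPM in sihnRNPA2B1-NC libraries. The groups met at sihnRNPA2B1 replicate 3 and control replicate 3 without overlapping, and the log2 change was 0.15 (SE 0.06, edgeR adjusted p = 0.0475). NFE2L2 no longer passed without sihnRNPA2B1 replicate 1 (adjusted p = 0.300) or 2 (0.107), nor without sihnRNPA2B1-NC replicate 1 (0.139) or 2 (0.120).

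GCLM had 106, 102 and 101 CPM in sihnRNPA2B1 libraries and 89.5, 90.3 and 90.1 CPM in sihnRNPA2B1-NC libraries, again with no overlap (log2 change 0.16, SE 0.06, edgeR adjusted p = 0.0254). Its call was lost without sihnRNPA2B1 replicate 1 (adjusted p = 0.108), 2 (0.0849) or 3 (0.0505) and without sihnRNPA2B1-NC replicate 1 (0.116). NQO1 had 295, 309 and 323 CPM in sihnRNPA2B1 libraries and 279, 300 and 286 CPM in sihnRNPA2B1-NC libraries, which overlapped (log2 change 0.07, SE 0.05, edgeR adjusted p = 0.378). Over all genes tested, 23.7% were apart with sihnRNPA2B1 higher and 18.3% with sihnRNPA2B1 lower. Of the 8 tested genes 5 were apart and higher and 1, AKR1B1, was apart and lower.

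**Figure D3:**
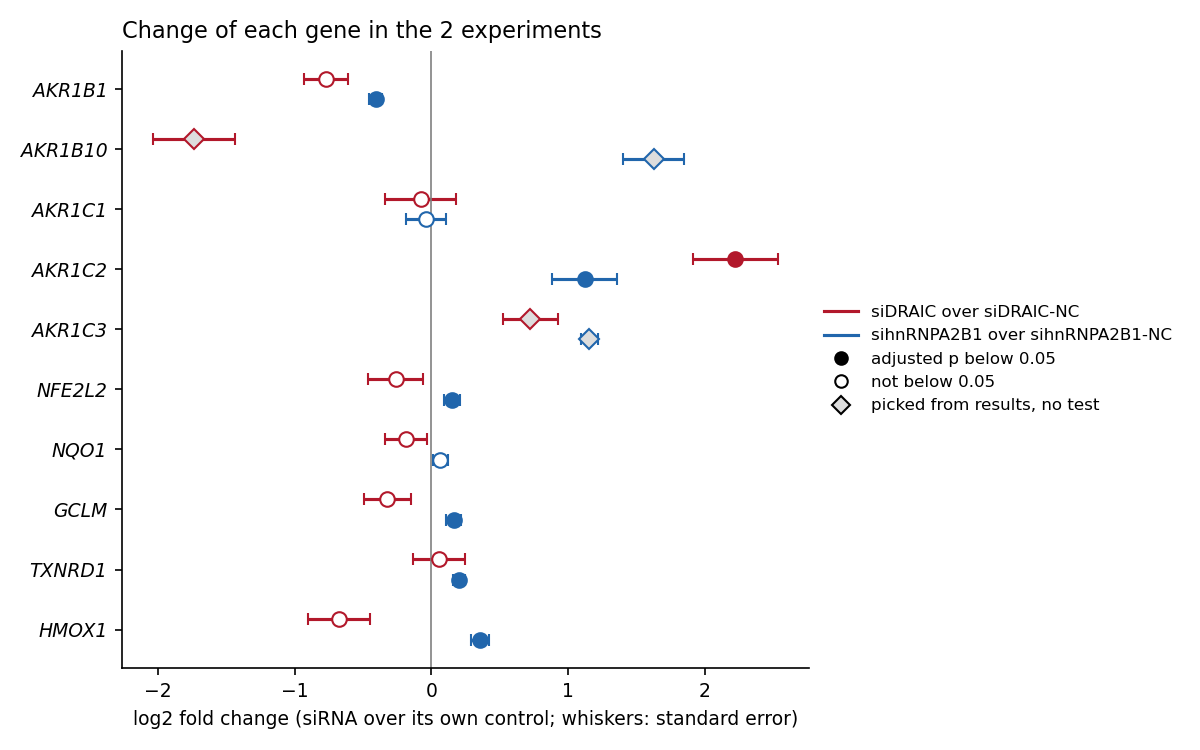
Fitted log2 change of each of the 10 genes (horizontal axis, siRNA over its own control; whiskers are 1 SE) in the experiments labelled siDRAIC and sihnRNPA2B1; filled points passed the test, open points did not, and diamonds carry no test. AKR1B10 lies at -1.74 in the first and 1.62 in the second, HMOX1 at -0.67 and 0.36, and AKR1C2 is above 0 in both. All points are from the fits without the replicate block.

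Whether the change differed between the experiments was tested on all 12 libraries, as the siDRAIC change minus the sihnRNPA2B1 change. None of the 8 tested genes passed in edgeR, where 0.105% of all 17091 genes were called higher and 0.105% lower. At an unadjusted p below 0.05 there were 4 (AKR1C2 with the larger siDRAIC change, and AKR1B1, GCLM and HMOX1 with the lower), against 9.13% of all genes. DESeq2 called 1, HMOX1 (adjusted p = 0.0174), and limma-voom called 0, against 1.14% and 0.158% of all genes. With the replicate block within each experiment edgeR called 1, HMOX1, where 0.673% of all genes were called higher and 0.837% lower. This block also pairs the sihnRNPA2B1 libraries by number, although their numbers are not taken as pairs.

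For HMOX1 the difference was -1.07 (SE 0.25, edgeR adjusted p = 0.126), with all siDRAIC libraries below and all sihnRNPA2B1 libraries above their controls, and -1.03 with the block (edgeR adjusted p = 0.0101). For GCLM the difference was -0.51 (SE 0.18, edgeR adjusted p = 0.348) and for AKR1C2 1.07 (SE 0.43, edgeR adjusted p = 0.453). For AKR1B1, lower in both experiments, it was -0.40 (SE 0.16, edgeR adjusted p = 0.449). Without siDRAIC-NC replicate 1 the differences were -1.23 for HMOX1 (edgeR adjusted p = 0.0115) and -0.53 for AKR1B1 (edgeR adjusted p = 0.0158). Of 18 alternatives, 14 left the difference of HMOX1 uncalled and 17 that of AKR1B1. With a library left out, 9 to 349 of all genes were called for the difference, against 36 with all libraries. For AKR1B10 the difference was -3.39 (SE 0.36) and for AKR1C3 -0.47 (SE 0.21), given with no test.

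The control groups were also set against each other, siDRAIC-NC over sihnRNPA2B1-NC, a comparison in which experiment and control siRNA cannot be told apart. NFE2L2, TXNRD1 and HMOX1 were lower in siDRAIC-NC libraries, 3 of the 8 tested genes, where 26.6% of all genes were called higher and 25.0% lower. NFE2L2 averaged 64.2 ± 17.2 CPM in siDRAIC-NC and 131 ± 7.16 CPM in sihnRNPA2B1-NC libraries (SD, n = 3 each), a log2 difference of -1.03 (SE 0.16, edgeR adjusted p = 6.56e-05). TXNRD1 differed by -0.52 (SE 0.15, edgeR adjusted p = 0.0079). HMOX1 differed by -0.60 (SE 0.18, edgeR adjusted p = 0.011), and by -0.51 without siDRAIC-NC replicate 3 (edgeR adjusted p = 0.0514).

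AKR1B10 averaged 10.4 ± 4.56 CPM in siDRAIC-NC and 1.10 ± 0.197 CPM in sihnRNPA2B1-NC libraries, and AKR1C3 averaged 121 ± 27.3 and 48.7 ± 2.95 CPM (SD, n = 3 each). The fitted ratios, 9.35 for AKR1B10 and 2.49 for AKR1C3, exceed those of either siRNA for the same genes, a description with no test. Placed in order of their group means, AKR1B10 was highest in siDRAIC-NC, then in sihnRNPA2B1 and siDRAIC, which overlapped at 3.00 to 3.82 and 2.71 to 3.44 CPM, and lowest in sihnRNPA2B1-NC. AKR1C3 was highest in siDRAIC, then in siDRAIC-NC and sihnRNPA2B1, which overlapped at 101 to 152 and 105 to 114 CPM, and lowest in sihnRNPA2B1-NC. AKR1C2 was highest in siDRAIC, and sihnRNPA2B1 and siDRAIC-NC overlapped, as did siDRAIC-NC and sihnRNPA2B1-NC. AKR1C1 overlapped between all neighbouring groups. HMOX1 kept all 4 groups apart, in the order sihnRNPA2B1, sihnRNPA2B1-NC, siDRAIC-NC and siDRAIC. How many of all genes keep the 4 groups apart was not counted.

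The genes whose pattern over the 12 libraries was nearest were sought among 11721 genes with a mean of at least 2 CPM, by the root mean square difference of log2 CPM after each gene was centred on its own mean. For AKR1B10 they were CA12 (0.49), DPP4 (0.62), ENSG00000285108 (0.66), MCIDAS (0.67) and FXYD2 (0.68), where the median over all genes was 1.17. CA12 encodes a membrane carbonic anhydrase, DPP4 a cell surface peptidase and FXYD2 a regulator of the sodium pump of kidney tubules. For AKR1C3 they were MAPK3 (0.18), RAB40B (0.19), CD24 (0.20), NRBP2 (0.21) and ST6GAL1 (0.23), against a median of 0.81. These distances include the difference between the experiments and carry no test.

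The pathway around the 10 genes was read from 8 lists, also written with earlier results of these data known. In siDRAIC libraries 0 of 102 tested list genes passed in edgeR, where 0.713% of all genes did. At an unadjusted p below 0.05 there were 25, against 10.7% of all genes, 4 by DESeq2, against 2.45%, and 1 by limma-voom, against 0.281%. With the replicate block 8 were called higher and 13 lower, against 5.20% and 3.58% of all genes.

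Of the pathway genes followed whether called or not, KEAP1, the adaptor that marks NRF2 for degradation, had a log2 change of -0.14 in siDRAIC libraries (edgeR adjusted p = 0.857). BACH1, a repressor of HMOX1, was at 0.01 (0.990), GCLC, the catalytic partner of GCLM, at -0.31 (0.641) and the cystine carrier SLC7A11 at -0.57 (0.765). SRXN1, which repairs oxidised peroxiredoxins, was at -0.62 (0.331). None of these 5 passed in this fit, which has no replicate block. The median log2 changes of the lists ran from -0.36 for the polyol pathway and glucose entry to 0.21 for the other aldo-keto reductases, against -0.0046 for all genes.

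In sihnRNPA2B1 libraries 39 of 97 tested list genes passed, 21 higher and 18 lower, beside the 15.1% and 15.4% of all genes. Of the 15 regulators and partners of NRF2, 0 rose and 5 fell, with a median log2 change of -0.06, against 0.0075 for all genes. The small MAF genes, whose proteins pair with NRF2 on DNA, fell together: MAFF by 0.42 (edgeR adjusted p = 5.78e-06), MAFG by 0.32 (5.88e-05) and MAFK by 0.30 (0.000262) on the log2 scale. SQSTM1, which binds KEAP1 and carries cargo to autophagy, fell to 1272 ± 36.9 CPM in sihnRNPA2B1 libraries, against 1583 ± 66.9 CPM in sihnRNPA2B1-NC libraries (log2 change -0.35, edgeR adjusted p = 2.93e-06). KEAP1 was at 0.01 (edgeR adjusted p = 0.933) and BACH1 at 0.12 (0.308).

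Of 6 genes of NADPH supply 3 rose and 1 fell, with a median of 0.16. Among them ME1, malic enzyme, had a log2 change of 0.43 (edgeR adjusted p = 6.39e-06) and TKT, transketolase, of 0.29 (0.000153), while IDH1, isocitrate dehydrogenase of the cytosol, fell by 0.17 (0.0247). Of 16 glutathione and thioredoxin genes 3 rose and 4 fell, with a median of 0.05. GCLC rose by 0.37 (edgeR adjusted p = 0.000135) and SLC7A11 by 0.31 (0.000685), while GSS, glutathione synthetase, fell by 0.60 (4e-09) and TXN, thioredoxin, by 0.23 (0.00154). SRXN1 was at -0.22 (edgeR adjusted p = 0.156).

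Of 23 detoxification and efflux genes 8 rose and 2 fell, with a median of 0.04. ABCC2, an export pump for conjugates, averaged 259 ± 13.4 CPM in sihnRNPA2B1 and 158 ± 9.86 CPM in sihnRNPA2B1-NC libraries (log2 change 0.68, edgeR adjusted p = 1.04e-10). ALDH1A1, which oxidises retinaldehyde, rose by 0.84 (edgeR adjusted p = 2.46e-08) and UGDH, which makes the sugar donor of glucuronidation, by 0.53 (1.35e-07), while GDF15, a stress-induced hormone, fell by 0.32 (2.02e-05). Of 9 haem and iron genes 0 rose and 2 fell: HMOX2, the constitutive haem oxygenase, by 0.48 (edgeR adjusted p = 2.87e-06) and BLVRB, a biliverdin reductase, by 0.51 (5.34e-06). HMOX1, the inducible haem oxygenase, rose.

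Of 16 retinoid, prostaglandin and steroid enzymes 5 rose and 2 fell, with a median of 0.10. ALDH1A3, which makes retinoic acid, rose by 0.81 (edgeR adjusted p = 1.02e-08), RDH10, which makes retinaldehyde, by 0.52 (4.99e-06), HSD17B4, a peroxisomal enzyme, by 0.44 (8.53e-05) and HPGD, which inactivates prostaglandins, by 1.44 (0.0001). HPGD averaged 3.07 ± 0.752 CPM in sihnRNPA2B1 and 1.08 ± 0.452 CPM in sihnRNPA2B1-NC libraries (SD, n = 3 each). In the other experiment it averaged 29.7 ± 7.82 CPM in siDRAIC and 5.11 ± 4.68 CPM in siDRAIC-NC libraries. That log2 change of 2.55 did not pass in edgeR without the replicate block (adjusted p = 0.198).

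Of 5 genes of the polyol pathway and glucose entry, which surround AKR1B1, 2 rose and 2 fell in sihnRNPA2B1 libraries, beside 15.1% and 15.4% of all genes. The glucose carrier SLC2A1 rose by 0.28 (edgeR adjusted p = 0.000377) and hexokinase HK2 by 0.27 (0.00076), while SORD, which carries sorbitol on to fructose, fell by 0.25 (0.00813) and HK1 by 0.16 (0.0273). Of 7 other aldo-keto reductases tested, 0 passed in edgeR and 0 were at an unadjusted p below 0.05, against 30.4% and 40.1% of all genes. DESeq2 and limma-voom called 0 of them as well. For the difference between the experiments 0 of 103 list genes passed in edgeR, against 0.211% of all genes. There were 17 at an unadjusted p below 0.05, 4 by DESeq2 and 0 by limma-voom, against 9.13%, 1.14% and 0.158% of all genes. With the replicate block 1 was called higher and 5 lower, against 0.673% and 0.837% of all genes.

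**Figure D4:**
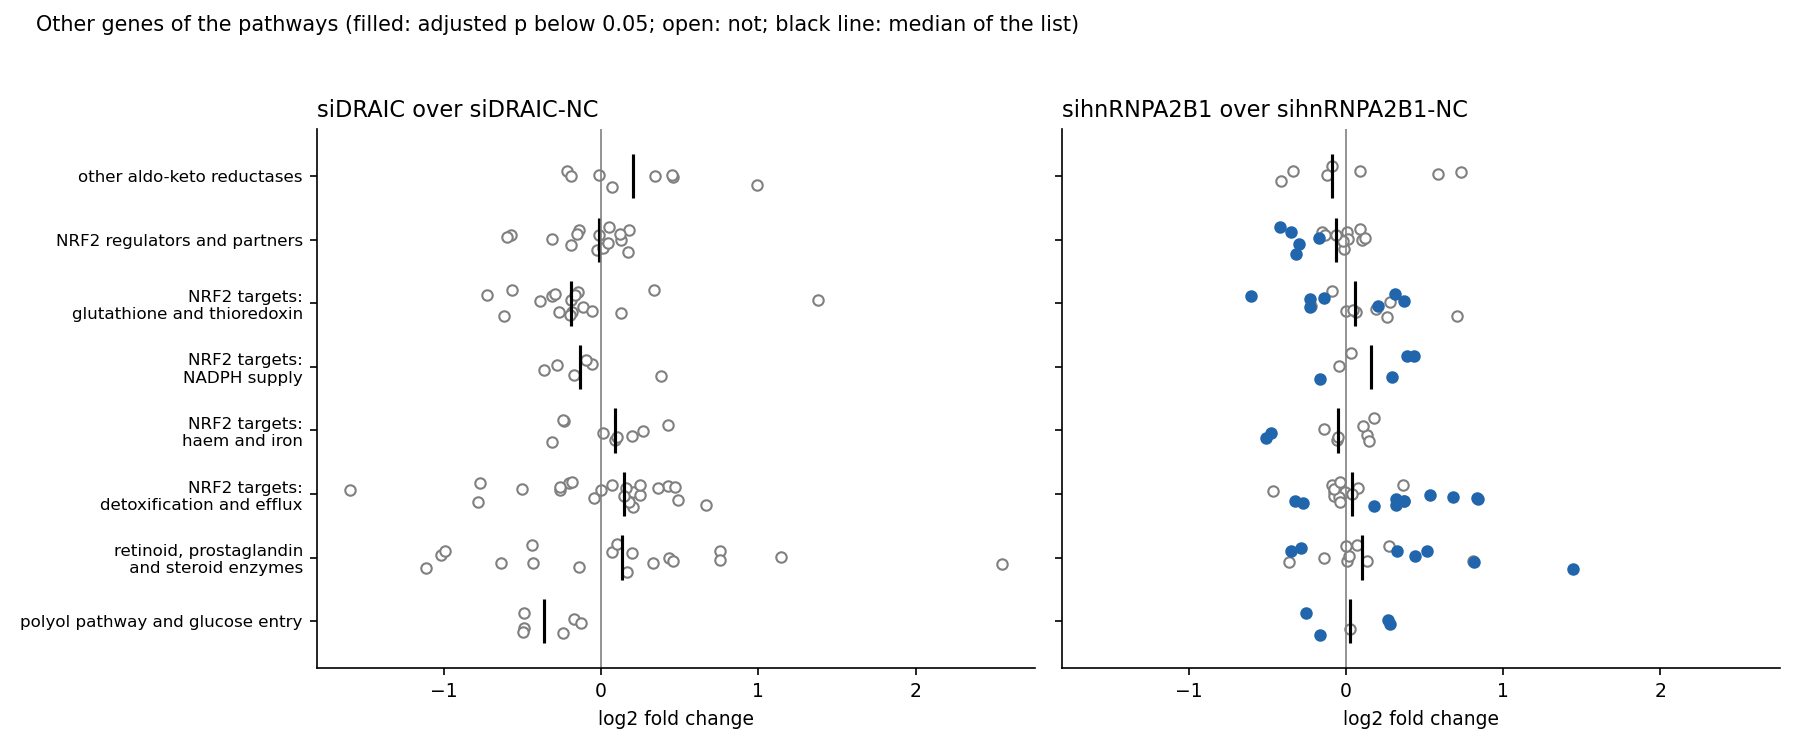
Fitted log2 change (horizontal axis, the same range in both panels) of each tested gene of the 8 pathway lists (rows), for siDRAIC over siDRAIC-NC on the left and sihnRNPA2B1 over sihnRNPA2B1-NC on the right; each point is a gene, filled where it passed the test, and the black lines show the list medians. In the left panel 0 of 102 genes passed the test, where 0.713% of all genes did. In the right panel 39 of 97 did, where 30.4% of all genes did. Both counts are from the fits without the replicate block.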

How the data were processed

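The authors deposited 1 table of raw counts per experiment, with whole numbers of reads for every Ensembl gene ID in 6 libraries and 0 unused columns. RNAiso Plus was used for extraction and a TruSeq kit for the libraries, per the labels' protocols. The tools were fastp 0.23.2, STAR 2.7.10a, StringTie and DESeq2 on build hg38, per the submitters' processing notes. No source used here names the counting program, its annotation or its use of strand: reads of NFE2L2 and NQO1 cannot be told apart from those of overlapping genes on the other strand.

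The 2 experiments were fitted separately in edgeR 4.0.16 (R 4.3.3), with filterByExpr at a minimum count of 10, TMM scaling, a robust quasi-likelihood test, two-sided, and Benjamini-Hochberg adjustment over all genes tested, with a threshold of 0.05. SE is the absolute log2 change over the square root of F. The difference between experiments and that between controls were fitted on all 12 libraries with 4 group means. The fits were tested on simulated data. The alternatives were RLE scaling, DESeq2 1.42.0, limma-voom (limma 3.58.1), no filter, 1 CPM in 3 libraries, a replicate block, all 12 libraries in 1 fit, AKR1C1 and AKR1C2 summed, and each library left out.

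The groups share replicate numbers in the labels. Deviations from the group means correlated at 0.489, 0.227 and 0.277 between same-numbered siDRAIC and siDRAIC-NC libraries, and at -0.409 to 0.103 between the others. The numbers are therefore taken as possible pairs in that experiment. Deviations from a mean of 3 libraries depend on each other, so these correlations cannot establish pairing. Tests are without the block unless it is named. The siDRAIC calls depend on it: 114 genes were called without it and 1404 with it.

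The 10 genes, the 8 lists and the tests were chosen with earlier results of these data known. All 10 genes are named, and from each list up to 4 called genes with the smallest p per experiment, plus KEAP1, BACH1, GCLC, SLC7A11 and SRXN1. A further gene of this rule is counted in its list but not reported here by name. The 3 libraries per group and their totals limit the precision: 3 counts correspond to 0.0702 to 0.0974 CPM. Intervals cover counting error only.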

Additional observations from a re-analysis of the deposited data

Results flagged for a closer look

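The change of AKR1B10 was of opposite sign in the experiments, with every siDRAIC library below its controls and every sihnRNPA2B1 library above its controls. The difference of the log2 changes was -3.39, and it was not tested, because AKR1B10 was picked from these results.

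HMOX1 showed the same arrangement, lower in all 3 siDRAIC and higher in all 3 sihnRNPA2B1 libraries than in their controls. The difference of the log2 changes was -1.07, with an edgeR adjusted p of 0.126 (0.0101 with the replicate block). That block pairs the libraries of both experiments by number, although the sihnRNPA2B1 numbers are not taken as pairs. Over the alternatives the adjusted p ran from 0.000368 to 0.344. Taken 1 experiment at a time, 5.86% of all genes were apart with siDRAIC lower and 23.7% with sihnRNPA2B1 higher. The share of genes with both was not counted.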

How the results depend on the processing

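Of 452 values of the 8 tested genes under alternatives, 391 kept their direction and side of the threshold, 26 lost the call, 23 gained one and 12 changed sign. The 112 values of AKR1B10 and AKR1C3, which carry no test, kept their direction. The sign changes were of AKR1C1, which passed in no comparison, and of TXNRD1 in the siDRAIC comparison, where it did not pass: with a library left out, the log2 change of AKR1C1 ran from -0.23 to 0.20 in siDRAIC and from -0.16 to 0.12 in sihnRNPA2B1 libraries, and its difference from -0.24 to 0.19. Summed with AKR1C2 it was 0.82 in siDRAIC and 0.27 in sihnRNPA2B1 libraries. TXNRD1 ran from -0.13 to 0.15 in siDRAIC libraries. The cause was not tested.

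Of all genes, 114 were called in siDRAIC libraries, against 392 by DESeq2, 45 by limma-voom, 520 with no filter, 61 at 1 CPM in 3 libraries, 1404 with the replicate block, 665 with all 12 libraries in 1 fit and 9 to 1035 with a library left out (9 without siDRAIC-NC replicate 2 and 1035 without siDRAIC-NC replicate 1). Of the 8 tested genes 1 was called there, against 2 by DESeq2 and with no filter, 3 with the block and in the fit of all 12 libraries, and 0 to 3 with a library left out. In sihnRNPA2B1 libraries 4781 genes and 6 of the 8 were called, against 283 and 0 in the fit of all 12 libraries, and 3318 to 5500 and 4 to 6 with a library left out. For the difference 36 genes were called, against 194 by DESeq2, 263 with no filter, 258 with the replicate block and 9 to 349 with a library left out. Of the 8, 0 were called, against 1 in each of those 3 and 0 to 2 with a library left out. Between the controls 8827 genes and 3 of the 8 were called, against 5 of the 8 with the block, and 7465 to 9740 and 2 to 6 with a library left out.

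Same-numbered sihnRNPA2B1 and control libraries correlated at -0.0117, -0.0242 and -0.0456, so their numbers are not taken as pairs. The block there gave adjusted p of 0.0931 for NFE2L2 and 0.0742 for GCLM.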

Other observations

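Between the control groups the pathway lists differed too, siDRAIC-NC over sihnRNPA2B1-NC. Of 17 glutathione and thioredoxin genes 8 were called higher and 4 lower, of 23 detoxification and efflux genes 12 and 5, of 18 retinoid, prostaglandin and steroid enzymes 10 and 2, and of 15 regulators and partners of NRF2 5 and 9, beside 26.6% and 25.0% of all genes. SLC7A11, the cystine carrier, averaged 18.7 ± 14.0 CPM in siDRAIC-NC and 93.9 ± 7.91 CPM in sihnRNPA2B1-NC libraries (SD, n = 3 each), a log2 difference of -2.36 (edgeR adjusted p = 0.00124). GDF15, a stress-induced hormone, averaged 114 ± 19.5 CPM in siDRAIC-NC and 1040 ± 52.3 CPM in sihnRNPA2B1-NC libraries, a log2 difference of -3.17 (edgeR adjusted p = 2.62e-09). ALDH1A3, which makes retinoic acid, averaged 73.9 ± 11.1 CPM in siDRAIC-NC and 25.2 ± 1.98 CPM in sihnRNPA2B1-NC libraries, a log2 difference of 1.56 (edgeR adjusted p = 1.61e-07). Experiment and control siRNA cannot be told apart here.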
